A study of Mus musculus with 4 samples.

Results

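The cells named ILC1_ILC3 were a small cluster that the authors labelled as a mixed type 1 and type 3 innate lymphoid cell (ILC) population, 1 of 21 cell types found among cells sorted as group 2 innate lymphoid cells (ILC2s). Its members here are the genes that the deposited cell type table lists for it: 225 genes of the 1679 listed for any type, or 13.4%. The same table listed 145 genes for ILC1 (8.64%) and 153 genes for ILC3 (9.11%), the pair of types used for comparison. A gene is listed for a type when the authors found it higher there than in all other sorted cells. *Upp1*, *Atf3* and *Fosb* were given as its markers.

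The cells came from 8-week-old male wild-type BALB/c mice injected intraperitoneally on each of 5 days with PBS or with the cytokine IL-33 in recombinant form (rIL-33, 0.5 µg), which activates ILC2s. The groups, PBS lung, PBS liver, rIL-33 lung and rIL-33 liver, had 1 library each, 4 in all. Tissue was digested with enzymes, and cells were sorted as lineage-negative CD127+ Thy1+ ST2+ and profiled by droplet-based sequencing of transcript 3' ends. The gate required the IL-33 receptor ST2 and excluded CD3e- and TCRb-positive cells, so ILC1 and ILC3 were not its target. The table pooled the 4 libraries and held no value per library, so neither organ nor treatment was compared, no value has a replicate, no test was made and sequencing depth is unknown.

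ILCs are lymphocytes without rearranged antigen receptors. ILC1s resemble natural killer (NK) cells: they carry receptors such as NKp46 and NK1.1, depend on T-bet and release interferon-γ. ILC3s are known for IL-17 and IL-22. Populations between both states are known, since ILC3s can gain T-bet. *Fos*, *Jun* and *Atf3* encode subunits of AP-1-type transcription factors. They are immediate early genes, which are transcribed within minutes of a stimulus, and tissue digestion is a known stimulus.

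Each value below is a percentage of cells, those whose value for the gene was above 0, in ILC1_ILC3 and in all other sorted cells. These shares could not be read as detection rates. *Cd3e*, which encodes a protein excluded by the gate, had a value above 0 in 83.5% of all cells in this table against 5.76% of the ILC2s in a second deposited table of 10 ILC2 subclusters. Over the 820 genes in both tables the median share was 56.8% in the first and 35.2% in the second. The assay behind the first table was not stated. A gene that is not listed for a type has no share there and may be lower, similar or too rare.

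ILC1_ILC3 made up 0.592% of the sorted cells (least-squares SE 0.00996 percentage points), against 4.84% ± 0.0182 for ILC1, 1.70% ± 0.0213 for ILC3 and 3.66% ± 0.0156 for NK. The sizes were solved from the shares of 1045 genes listed for at least 2 types, since the share in all cells must be the same whichever type lists a gene. The errors cover the rounding of shares and the fit only.

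Of the given markers, *Upp1* showed the widest gap of all 225 genes. *Upp1* encodes uridine phosphorylase, which splits uridine into uracil and ribose-1-phosphate. Its value was above 0 in 94.5% of ILC1_ILC3 cells against 28.5% of other cells. Its only further listing was Endothelium cell, at 88.8%. The gene lies at chr11:9118103-9136170 on the plus strand (GENCODE, GRCm38). *Atf3* (chr1:191170296-191218039, minus strand) was listed for no other type, at 77.0% against 59.6%. *Fosb* (chr7:19302696-19310051, minus strand) was at 97.3% against 84.1% and was also listed for Basophil at 100%, gdT_TypeII at 97.2%, ILC2 at 97.0%, gdT_TypeIII_ITGAE at 93.1% and ILC2_2 at 89.6%. *Fosb* therefore did not separate ILC1_ILC3 from these types, whereas *Atf3* was a listing of ILC1_ILC3 alone with a narrower gap than *Upp1*.

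The DNA before the given markers and the other AP-1 family genes of ILC1_ILC3 was searched, because AP-1 and ATF3 bind known short motifs. Only *Upp1* and *Atf3* are shown, since only these had an exact match. Sequences are from RefSeq (GRCm38.p6, the assembly called mm10) and end 1 base before the most upstream RefSeq start of the gene. Capitals mark a match to the AP-1 motif TGANTCA or the CRE-like motif TNACGTCA, both strands searched. The *Upp1* stretch (chr11:9117758-9118007, plus strand) overlapped no GENCODE exon and lay before the GENCODE start of the gene, and its match began 45 bases before the RefSeq start. The *Atf3* stretch is the last 30 bases before the start (chr1:191183334-191183363, minus strand), and its match began 10 bases before it. This RefSeq start lies inside the longer GENCODE gene, and the 250 bases before it overlapped 1 GENCODE exon.
Upp1: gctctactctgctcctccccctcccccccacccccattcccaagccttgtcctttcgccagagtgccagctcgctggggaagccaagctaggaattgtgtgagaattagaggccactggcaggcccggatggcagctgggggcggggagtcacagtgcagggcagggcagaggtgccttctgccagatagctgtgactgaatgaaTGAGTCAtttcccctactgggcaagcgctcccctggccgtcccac
Atf3: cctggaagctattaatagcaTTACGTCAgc
No exact match to either motif was found in the 250 bases before *Fos*, *Fosb*, *Jun* or *Maff*. Close variants of the motifs were not searched, so this does not show that such sites are absent. Of the 178 genes of ILC1_ILC3 with a sequence in the RefSeq table, 14 (7.87%) had TGANTCA in the 250 bases before their start, against 6.85% of 27025 genes. The CRE-like motif was found for 6 of the 178 (3.37%), against 2.62%. Both shares were near those of all genes, and a match describes letters in the window, not a bound site.

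On the scale of this table, the median share was 82.5% in ILC1_ILC3 and 59.3% in all other cells, and the median difference was 20.3 percentage points, against 10.9 for the genes of ILC1 and 6.7 for those of ILC3. The share was higher in ILC1_ILC3 for 219 genes. The differences ran from 66.0 to -22.9 points, with 41 genes at 30 points or more and 36 under 10. *Fcer1g*, *Tmem176b*, *S100a4*, *Zfp36l1* and *S100a10* had a value above 0 in 100% of ILC1_ILC3 cells, and 37 genes reached 95% or more.

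Among the 20 widest gaps no gene was in the ILC1 or ILC3 marker lists used below, and 3 (*Upp1*, *H2-Eb1* and *Klrb1f*) were in another list. Of the 20, 5 were listed for ILC1, 5 for ILC3 and 10 for neither. For 11 the share was higher in ILC1_ILC3 than in any other type listing the gene. The 20 were picked for this gap and the other cells include ILC1 and ILC3, so the choice itself favours higher shares in ILC1_ILC3. After *Upp1* came *Cited4*, a transcriptional co-activator that binds CBP and p300. It was at 91.3% in ILC1_ILC3, 32.1% in other cells, 48.5% in ILC1 and 36.7% in NK. *Fnbp1l*, which shapes membranes during endocytosis, was at 71.6% against 17.9%, the lowest outside share of the 20. *H2-Eb1*, an MHC class II chain, was at 74.3% against 24.4%. *Igfbp7*, a secreted binding protein of insulin-like growth factors, was at 79.2% against 31.5%.

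Several wide gaps belonged to genes that ILC3 also listed, mostly at lower shares. *Ckb*, the brain-type creatine kinase that buffers ATP, was at 92.3% against 50.1% and at a similar 91.2% in ILC3. *Plekhg1*, a guanine nucleotide exchange factor, was at 79.8% against 36.9% and at 45.7% in ILC3. In *Khdrbs3*, an RNA-binding protein gene, the shares were 73.8% and 34.0%, with 50.9% in ILC3. *Mmp25*, a membrane-anchored matrix protease gene, was at 76.0% against 36.3%, with 56.4% in ILC3. Of these 4 genes, *Ckb* alone was within 2 points of its ILC3 share.

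The genes shared with ILC1 among the 20 were likewise higher in ILC1_ILC3, a direction that the choice of the 20 favours. *Klrb1f*, a C-type lectin receptor of the NK gene complex, was at 92.9% against 54.6%, with 78.7% in ILC1 and 81.4% in NK. *Serpina3g*, an intracellular serine protease inhibitor gene, was at 86.3% against 48.5%, with 59.3% in ILC1. *Ptms*, which encodes the nuclear protein parathymosin, was at 95.6% against 57.9%, with 66.6% in ILC1. *Trf*, the iron carrier transferrin, was at 69.9% against 32.7%, with 44.3% in ILC1. The remaining genes were *Ncoa7* (88.0% against 46.9%), *Abca3* (76.0% against 37.5%), *Rprm* (60.1% against 22.4%), *Dgat1* (83.6% against 46.0%), *Dhrs3* (82.5% against 44.9%) and *Fam184b* (73.2% against 36.6%). *Dgat1* catalyses the last step of triglyceride synthesis, *Dhrs3* reduces retinal to retinol, and *Abca3* is a lipid transporter.

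**Figure D1:**
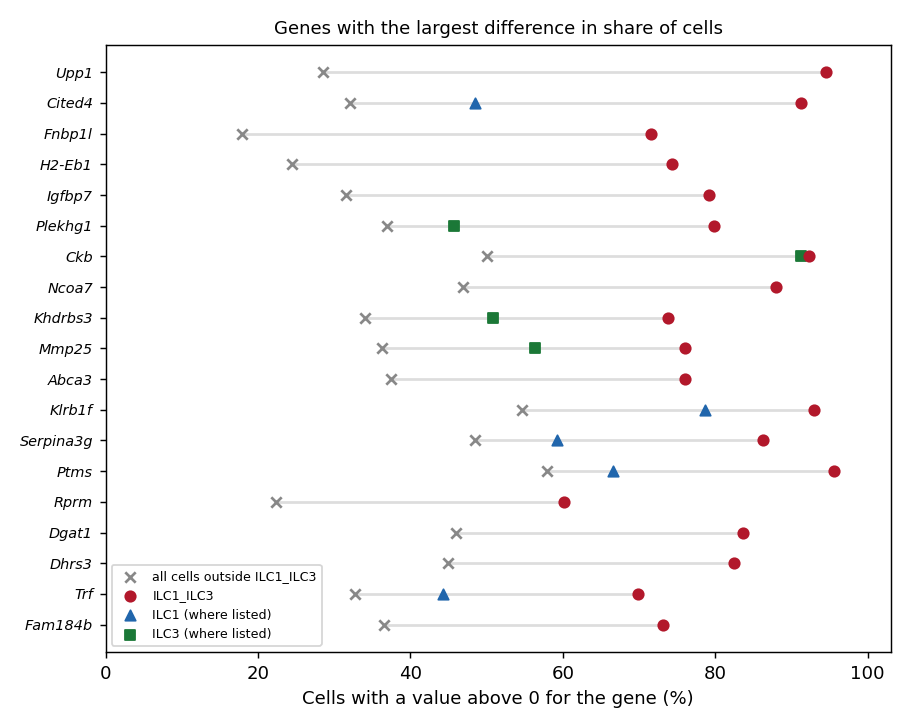
Percentage of cells whose value was above 0 (x axis) for 19 of the 20 genes with the widest gap between ILC1_ILC3 (circles) and all other cells (crosses), with triangles for ILC1 and squares for ILC3 where they list the gene; no error bars, since libraries were pooled. *Upp1* runs from 28.5% to 94.5%, and *Ckb* is the gene for which ILC3 nearly meets ILC1_ILC3.

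The label was set beside marker lists. The authors named the types by hand from cluster markers, so these counts describe the label and are no independent support for it. Of 19 ILC1 markers listed for any type, 11 (57.9%) were listed for ILC1_ILC3, 15 for ILC1 and 3 for ILC3. NK and gdT_TypeI each listed more of these 19 than ILC1_ILC3 did, and listed 11.7% and 8.64% of all genes. Of 21 ILC3 markers, 14 (66.7%) were listed for ILC1_ILC3, 3 for ILC1 and 10 for ILC3. The γδ T cell types gdT_TypeIII_CD163l1 and gdT_TypeIII_ITGAE listed 10 each, as many as ILC3, and listed 11.4% and 11.7% of all genes. Both shares of ILC1_ILC3 were above its 13.4% of all genes. The median difference was 17.5 points for the ILC1 markers and 24.9 points for the ILC3 markers, beside 20.3 over all 225 genes. Several defining genes were not listed for it: *Tbx21* (T-bet), *Ifng* and *Gzmb* among ILC1 markers, and *Il17a*, *Il17f* and *Tnfsf11* among ILC3 markers. ILC1 did not list *Gzmb* either, nor did ILC3 list *Il17a*, *Il17f* or *Tnfsf11*.

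On the ILC3 side, *Ccr6*, a chemokine receptor of lymphoid tissue inducer-like ILC3s, was at 82.5% in ILC1_ILC3, 50.8% in all other cells, 53.1% in ILC3 and 84.2% in gdT_TypeIII_ITGAE. *Il1r1*, the IL-1 receptor that activates ILC3s, was at 73.8% against 42.4%, with 48.4% in ILC3. *Cxcr5* (77.6% against 42.8%), *Cd83* (78.7% against 42.8%), *Kit* (80.3% against 59.2%) and *Lta* (75.4% against 53.3%) were listed for ILC1_ILC3 but not for ILC3. CXCR5 guides cells to B cell follicles, KIT is the stem cell factor receptor, and lymphotoxin, made from *Lta*, is needed to build lymph nodes.

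*Tmem176a* (99.5% against 71.3%) and *Tmem176b* (100% against 74.4%), a neighbouring pair of membrane protein genes, were near their 98.3% in ILC3. ILC1 listed them at 81.6% and 88.3%. *Ahr*, the aryl hydrocarbon receptor that maintains ILC3s, was at 77.0% against 56.6%, with 70.3% in ILC3 and 55.4% in ILC1. *Rora* was at 97.8% against 81.2%, with 90.1% in ILC3. *Hk2*, a hexokinase gene, was at 74.3% against 50.0%, with 67.2% in ILC3. *Gpx1* (91.3% against 75.4%) and *Ramp1* (95.1% against 84.3%) were at 91.8% and 99.2% in ILC3, so these 2 of the 14 markers were lower in ILC1_ILC3 than in ILC3.

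On the ILC1 side 4 receptor genes of the marker list, *Ncr1*, *Klrk1*, *Klrb1c* and *Il2rb*, were at lower shares than in ILC1, whereas *Klrb1f* and *Klri2*, outside that list, were higher. *Ncr1*, which encodes NKp46, was at 79.2% against 63.8% in other cells, with 95.1% in ILC1 and 99.3% in NK. *Klrk1*, which encodes NKG2D, was at 87.4% against 71.0%, with 97.2% in ILC1 and 95.1% in NK. *Klrb1c*, a C-type lectin receptor gene, was at 66.7% against 50.7%, with 68.8% in ILC1 and 72.6% in NK. *Klrb1b*, an inhibitory receptor, was at 55.7% against 40.6% and was listed for NK at 40.8% but not for ILC1. *Il2rb*, the shared receptor chain for IL-2 and IL-15, was at 95.6% against 78.1%, with 98.1% in ILC1. *Ctsw*, a protease of cytotoxic lymphocytes, was at 92.9% against 75.4%, with 97.2% in ILC1. *Xcl1*, a chemokine that attracts dendritic cells, was at 63.9%, close to the 62.1% of other cells and below the 93.7% of ILC1.

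The other 4 genes of the ILC1 list were higher than in ILC1 or were not listed for it. *Cd160* was at 68.9% against 38.5%, with 64.4% in ILC1 and 48.2% in NK. *Itga1*, which encodes the collagen-binding integrin CD49a, was at 77.6% against 53.7%, with 56.6% in ILC1 and 36.4% in ILC3. *Cxcr3* was at 88.0% against 65.9%, with 75.4% in ILC1 and 73.5% in ILC3. *Cxcr6*, a chemokine receptor of liver-resident lymphocytes, was at 95.6% against 71.5%. It was listed for ILC3 (97.9%) and not for ILC1.

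**Figure D2:**
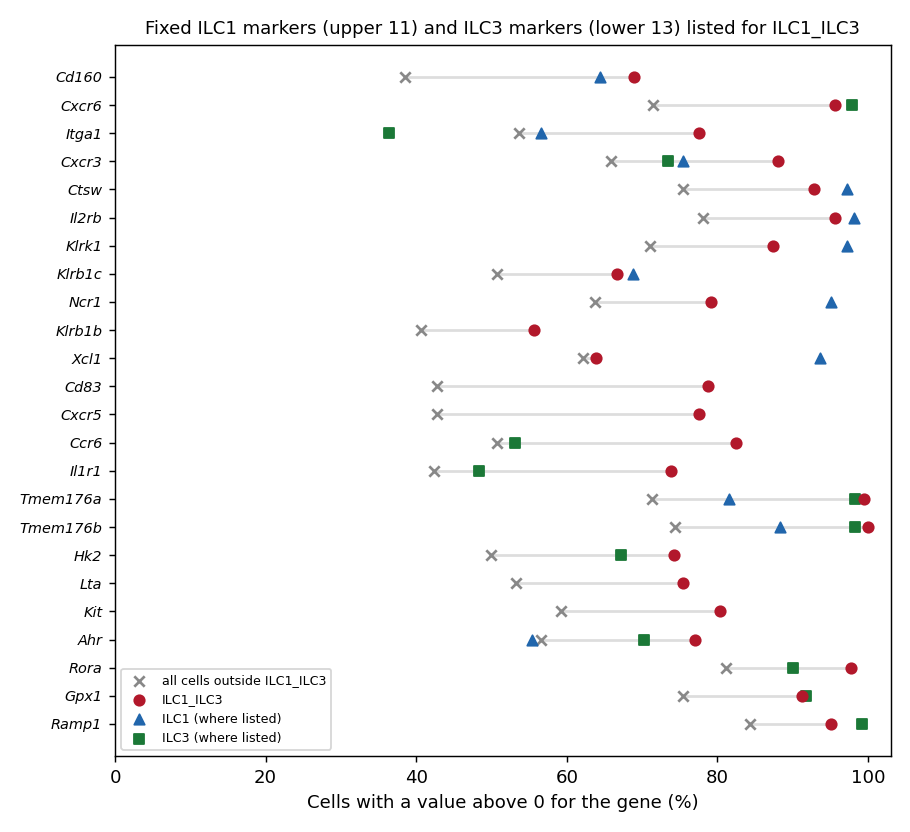
Percentage of cells whose value was above 0 (x axis) for the 11 ILC1 markers (upper rows) and 13 ILC3 markers (lower rows) among those listed for ILC1_ILC3; symbols are ILC1_ILC3 (circles), all other cells (crosses), ILC1 (triangles) and ILC3 (squares) where listed, with no replicates. *Ncr1*, *Klrk1* and *Xcl1* lie below ILC1, whereas *Ccr6* and *Il1r1* lie above ILC3.

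Markers of the other cell types in the gate were listed at 0% to 15.0% of a list, around or below the 13.4% of all genes. Of the 20 genes of the NK cell list, ILC1_ILC3 listed 3 (15.0%), *Klrk1*, *Ncr1* and *Klri2*, while *Eomes*, *Gzma* and *Prf1* were not listed. ILC1 listed 11 (55.0%), beside its 8.64% of all genes. *Klri2* was at 67.2% against 48.1%, with 52.0% in ILC1 and 61.7% in NK. Of 14 killer lectin-like receptor genes, ILC1_ILC3 listed 5 (*Klrb1f*, *Klri2*, *Klrk1*, *Klrb1c* and *Klrb1b*) and ILC1 listed 9. These were 35.7% and 64.3%, both above the share of all genes. Of 12 cytotoxic effector genes ILC1_ILC3 listed 2 (16.7%), near its background, and ILC1 listed 8 (66.7%). Of the 2, *Gzmc* had a lower share than other cells (39.3% against 48.8%). Among adapters, *Fcer1g* was at 100% against 63.7% and *Txk* at 96.2% against 82.9%, near their 97.0% in ILC1. *Tyrobp*, which encodes DAP12, was at 68.3% against 63.6%, with 92.7% in ILC1 and 99.7% in NK.

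Of 20 ILC2 markers, *Lif* (71.0% against 42.2%), *Il2ra* (90.7% against 62.0%) and *Csf2* (69.9% against 49.4%) were listed, and *Gata3* and *Il1rl1* (ST2) were not. Of 22 T cell genes, *Cd4* was listed (77.0% against 54.3%) and no *Cd3* or T cell receptor constant gene was. ILC1 listed 1 of the 22 and ILC3 listed 7, among them *Cd3e*, *Cd3g*, *Trac* and *Trbc2*. Of 14 B cell and plasma cell genes and 8 MHC class II genes, *H2-Eb1* was the 1 listed. MMP_LMPP, Macrophage and Plasma cell listed it at 90.2%, 85.1% and 100%, together with *Cd74* and *H2-Aa*, which ILC1_ILC3 did not list. Of 8 myeloid genes, *Cebpb* was listed (95.1% against 82.7%), and 0 of 14 basophil and 0 of 8 endothelium genes were. Levels of unlisted genes are not in the table, and the part of admixed cells or doublets in these values was not tested.

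The lists of ILC1_ILC3, ILC1 and ILC3 were then compared. All of them used largely the same background cells, so overlaps are given as counts only. ILC1_ILC3 shared 68 genes with ILC1, which was 30.2% of its own list and 46.9% of that of ILC1. It shared 81 with ILC3, which was 36.0% and 52.9%. Of its 225 genes, 48 were shared with ILC1 and not ILC3, 61 with ILC3 and not ILC1, 20 with both and 96 (42.7%) with neither. ILC1 and ILC3 shared 24 genes, of which 4 were not listed for ILC1_ILC3. When only listings at least 10 points above other cells were kept, 37 genes were shared with ILC1 and 36 with ILC3.

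Where both types listed a gene, the shares of ILC1_ILC3 were mostly the higher ones. They were higher than in ILC1 for 53 of the 68 shared genes, with a median of 88.8% against 80.6% and a median difference of 6.6 points (from -29.8 to 42.8). They were higher than in ILC3 for 67 of the 81, lower for 13 and equal for 1, with medians of 87.4% and 73.3% and a median difference of 8.7 points (from -35.1 to 41.2). Of the 20 genes listed for all 3 types, ILC1_ILC3 had the highest share for 19 and lay between the others for 1, *S100a6* (98.4%, with 93.3% in ILC1 and 99.8% in ILC3). A gene had to be listed for both types to be compared, so these counts do not cover the other genes. Some ILC1 genes that ILC3 did not list, such as *Ncr1*, *Klrk1*, *Ctsw* and *Tyrobp*, lay between other cells and ILC1.

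The widest gaps above ILC1 were in *Cited4*, *Ptms* and *Serpina3g*, given above, in *Bcl2a1d*, an anti-apoptotic BCL2 family gene (88.0% against 59.4% in ILC1), and in *Gabarapl1*, an autophagy gene (68.9% against 42.6%). *Bcl2a1d* has near-identical neighbouring copies, so its reads may be divided among them. The widest gaps below ILC1 were in *Xcl1*, *Tyrobp*, *Ncr1* and *Klrk1*, and in *Pglyrp1*, a peptidoglycan recognition protein gene (65.0% against 75.9%). The widest gaps above ILC3 were in *Itga1* and *Plekhg1*, in *Fam110a* (84.7% against 54.1% in ILC3) and in *Ier5l* (87.4% against 57.1%). Below ILC3 stood *Ly6g5b* (37.7% against 72.8%), *Igf1r*, the IGF-1 receptor gene (67.8% against 73.5%), *Ramp1*, *Ppp1r14c* (48.6% against 52.4%) and *Cxcr6*. Apart from *Ly6g5b*, the low side against ILC3 was within 6 points.

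**Figure D3:**
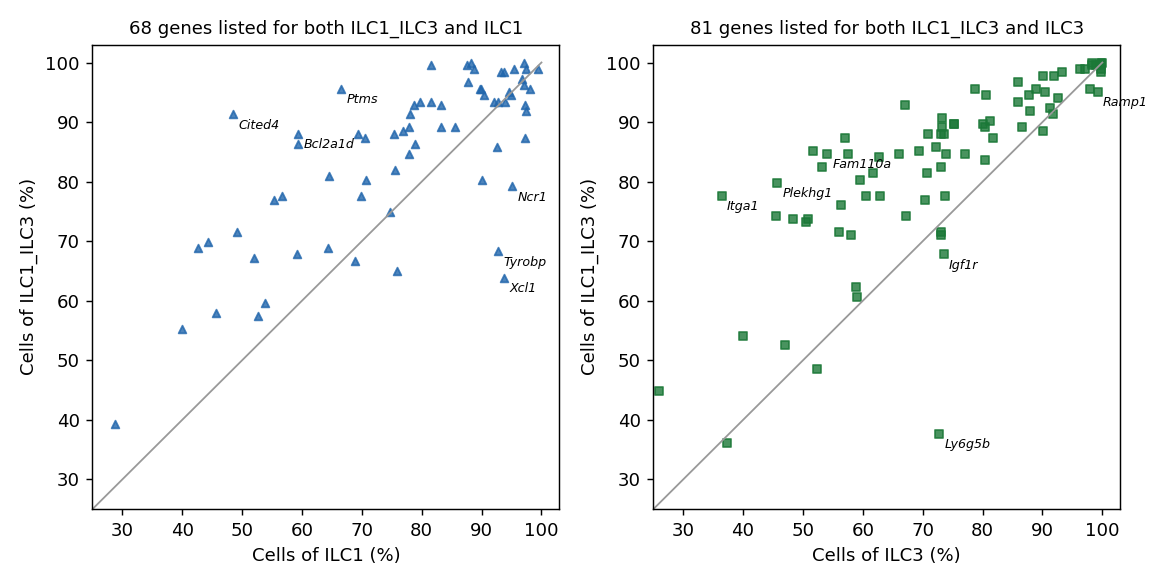
Percentage of cells whose value was above 0 in ILC1_ILC3 (y axes) against ILC1 (left x axis, 68 genes) and ILC3 (right x axis, 81 genes), 1 point per gene listed for both types, the line marking equal shares. Most points lie above the line (53 of 68 and 67 of 81), while *Xcl1*, *Tyrobp* and *Ncr1* lie below it on the left and *Ly6g5b* on the right.

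Of 8 AP-1 family genes listed for any type, 5 (62.5%) were listed for ILC1_ILC3 and 0 for ILC1 and ILC3, beside 13.4%, 8.64% and 9.11% of all genes. At their shares of all genes under 1 gene of 8 would be listed for ILC1 or for ILC3, so their 0 is near the background. *Fosl1*, *Fosl2* and *Batf3* were not listed for ILC1_ILC3. *Jun* was at 92.9% against 73.7%, *Maff*, a small MAF protein gene, at 87.4% against 69.0%, and *Fos* at 96.7% against 89.9%, beside *Atf3* and *Fosb* above. Basophil and gdT_TypeIII_ITGAE listed 4 of the 8, ILC2_2 listed 3, and ILC2, gdT_TypeII and MMP_LMPP listed 2 each. These types listed 16.4%, 11.7%, 11.9%, 8.10%, 1.67% and 24.0% of all genes. The 5 genes were at 59.6% to 89.9% in other cells, and the median difference of the 5 genes (17.4 points) was below the 20.3 of all 225.

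Other immediate early genes were listed alongside: 12 of 27 (44.4%), against 5 for ILC1, 2 for ILC3 and 14 for Basophil, beside 13.4%, 8.64%, 9.11% and 16.4% of all genes. The count of ILC3 was near its background. gdT_TypeIII_ITGAE, Treg and Plasma cell listed 10 each, beside 11.7%, 8.93% and 12.2% of all genes. gdT_TypeII listed 5, beside 1.67% of all genes, so such listings were not particular to ILC1_ILC3. *Nr4a3* and *Nr4a1*, nuclear receptors induced by activation, were at 87.4% against 64.2% and 92.9% against 72.2%. *Ier5l* was at 87.4% against 64.5%, with 70.5% in ILC1. *Egr1*, *Ppp1r15a* and *Klf6* were not listed for ILC1_ILC3. Of 12 heat shock chaperone genes, which also respond to tissue digestion, 1 was listed (8.33%, beside the 13.4% of all genes), *Hsph1* at 54.6% against 43.6%, and *Hspa1a* and *Hspa1b* were not. The part of digestion in the AP-1 and immediate early values was not tested. In the ILC2 subcluster table *Fosb* was listed for subclusters 0, 3 and 5, and *Atf3* and *Upp1* for none.

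**Figure D4:**
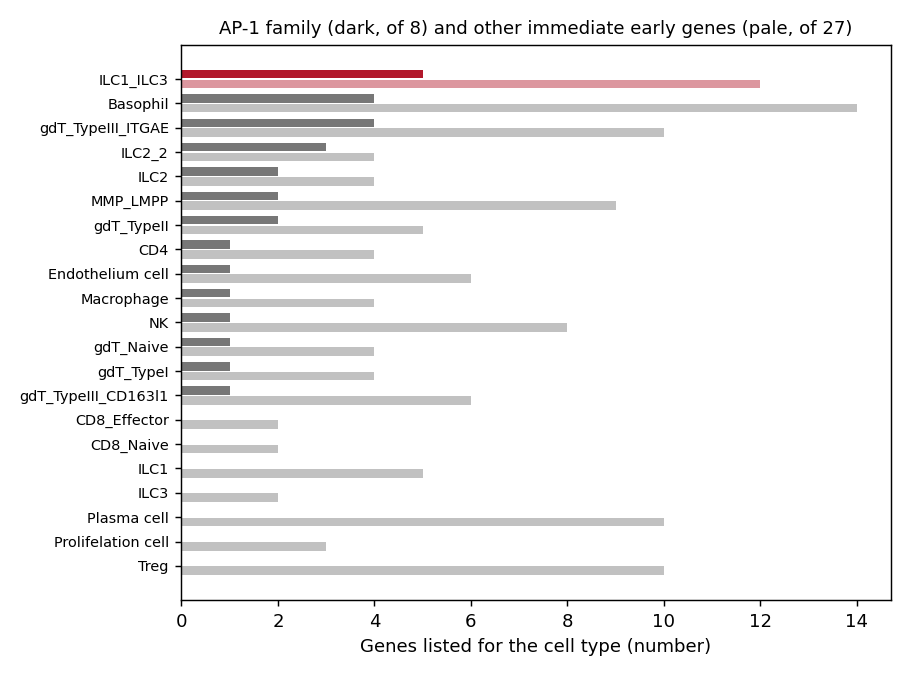
Number of AP-1 family genes (dark bars, of 8) and other immediate early genes (pale bars, of 27) listed for each of the 21 cell types (y axis), with ILC1_ILC3 in red. ILC1_ILC3 lists 5 and 12, Basophil 4 and 14, ILC1 0 and 5, and ILC3 0 and 2.

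NF-κB is a transcription factor that also acts within minutes of a stimulus, and 8 of 11 genes for its subunits, inhibitors and targets (72.7%) were listed, against 2 for ILC1 and 4 for ILC3, beside 13.4%, 8.64% and 9.11% of all genes. The subunit gene *Rel* was not among the 8. The median difference was 21.2 points. *Nfkbid*, a nuclear IκB protein gene, was at 88.5% against 57.4% and was listed for neither ILC1 nor ILC3. *Bcl2a1d* was at 88.0% against 56.8%, with 70.9% in ILC3. *Cd44* was at 94.5% against 71.8% and *Traf1*, a TNF receptor adapter gene, at 92.9% against 70.8%. *Tnf* itself was at 71.0% against 54.4%, with 58.1% in ILC3. *Lta*, *Tnf* and *Tnfsf8* (68.9% against 58.1%) were the 3 of 8 TNF superfamily genes listed.

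Receptors for cytokines and chemokines are read against the 13.4% of all genes listed for ILC1_ILC3, 8.64% for ILC1 and 9.11% for ILC3. Of 12 cytokine receptor genes 5 (41.7%) were listed: *Il1r1*, *Il2ra*, *Il18r1*, *Kit* and *Il2rb*. ILC3 listed 4 (33.3%) and ILC1 listed 2 (16.7%). *Il18r1*, the IL-18 receptor chain, was at 98.9% against 74.0%, with 88.8% in ILC1, 97.1% in ILC3 and 89.5% in NK. Of 8 genes of cytokine feedback 5 (62.5%) were listed, with *Cish*, a STAT5 target, at 90.2% against 62.8% and *Pim2* at 55.2% against 34.6%. Of 17 chemokine receptor and tissue exit genes 6 (35.3%) were listed, among them *Cxcr5*, *Ccr6* and *Cxcr6* above. ILC3 listed more of these, 7 (41.2%), and ILC1 listed 4 (23.5%). Of 9 chemokine genes 3 (33.3%) were listed, *Cxcl2* (77.0% against 52.1%), *Cxcl10* (73.2% against 51.0%) and *Xcl1*, and ILC1 also listed 3. Of 9 integrin genes 2 (22.2%) were listed, *Itgav* (79.2% against 46.3%) and *Itga1*, a count near the background.

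Of 24 lineage transcription factor genes 9 (37.5%) were listed, against 5 for ILC1 and 6 for ILC3, beside 13.4%, 8.64% and 9.11% of all genes. *Nfil3*, needed early in ILC development, was at 82.0% against 55.5%, with 75.6% in ILC1. *Maf* was at 94.0% against 67.6%, with 92.6% in ILC3. *Runx2* (76.0% against 52.1%), *Tox* (76.5% against 55.0%) and *Tcf7* (94.0% against 78.7%) were listed for neither. *Id2*, required by all ILCs, was at 98.9% against 88.1%, with 97.5% in ILC1.

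Of the S100, galectin and annexin list, all 10 genes that were listed for any type were listed for ILC1_ILC3, 9 of them for ILC3 and 4 for ILC1, beside 13.4%, 9.11% and 8.64% of all genes. The γδ T cell type gdT_TypeIII_CD163l1, with 11.4% of all genes, also listed all of them except *Anxa1*. The list holds a selection of genes for calcium- or sugar-binding proteins, with the actin-capping protein gene *Capg* among them. *S100a1*, outside the list, was at 66.1% against 33.3%. *Anxa2* was at 93.4% against 62.9%, *Capg* at 95.1% against 65.9% and *Lgals3* at 99.5% against 72.1%. *S100a10* was at 100% against 97.3%, so its share was nearly as high in other cells. Their median difference was 18.4 points, near that of all 225 genes. Of 9 glycolysis genes 5 were listed, *Hk2* and *Tpi1* (77.0% against 55.7%) with the widest gaps, and 3 when a gap of at least 10 points was required. Of 7 nucleoside and salvage genes *Upp1* was the 1 listed, and of 6 DUSP phosphatase genes *Dusp5* (93.4% against 84.4%). None of 20 proliferation genes or 19 interferon response genes was listed, whereas ILC1 listed 3 of the latter. No ribosomal protein, erythroid, or hepatocyte and lung epithelium gene was listed for any type.

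**Figure D5:**
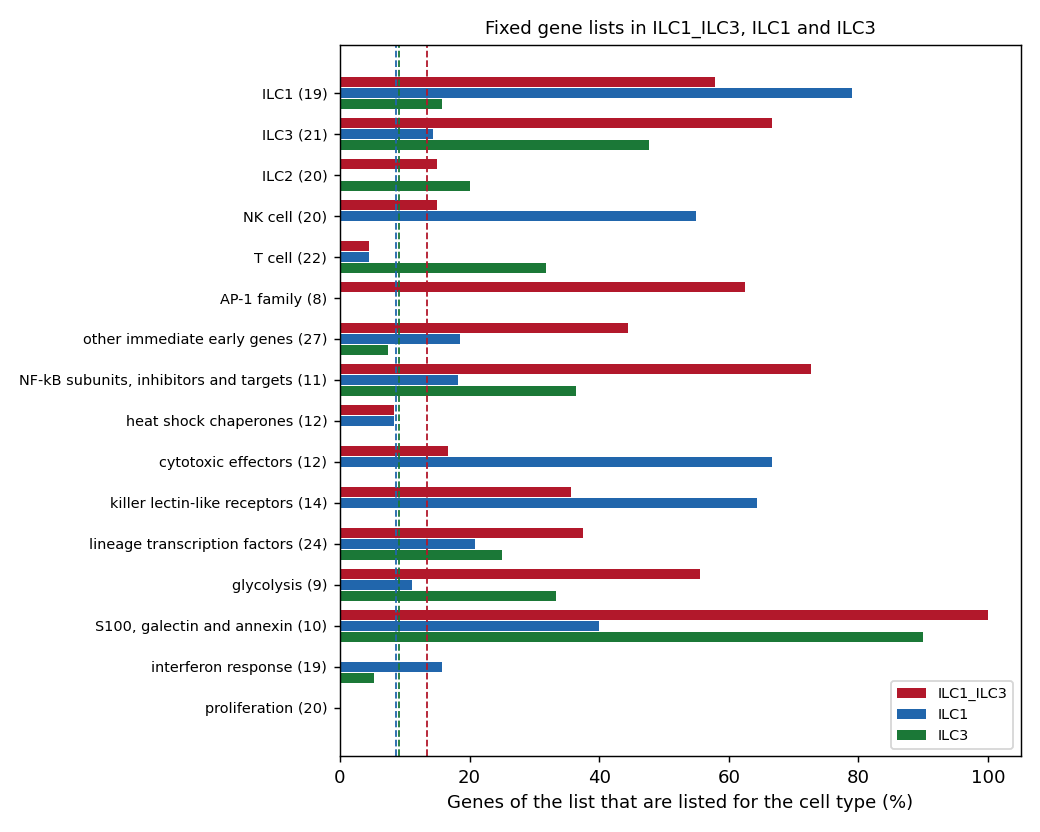
Percentage of the genes of each list (number listed for any type in brackets) that are listed for ILC1_ILC3 (red), ILC1 (blue) and ILC3 (green); dashed lines mark the share of all 1679 genes, 13.4%, 8.64% and 9.11%. ILC1_ILC3 lists 57.9% of the ILC1 and 66.7% of the ILC3 markers, 62.5% of the AP-1 family and none of the interferon response or proliferation genes.

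A set of 9 genes was listed for ILC1_ILC3 and for no other type, or 4.0% of its list, against 1 gene each for ILC1 (0.690%) and ILC3 (0.654%). *Rprm* (60.1% against 22.4%) encodes a p53-induced inhibitor of the cell cycle. *Cad* (74.3% against 40.6%) encodes the enzyme for the first steps of pyrimidine synthesis. *C4b*, complement component 4, was at 43.2% against 18.4%, and *Ddc*, which makes dopamine and serotonin from their precursors, at 54.1% against 39.3%. The others were *Fam184b*, *Nr4a3*, *Atf3*, *Impg1* (45.4% against 29.5%) and *Rasl11a* (33.3% against 32.6%). Requiring a gap of at least 10 points raised the number listed alone to 27, since listings of other types were removed. The remaining 216 genes were shared with at least 1 other type, and ILC1_ILC3 had the highest share for 65 of them. A gene of the list was listed for a median of 5 types and for at most 10.

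Of the 225 genes, 6 had a lower share in ILC1_ILC3 than in other cells. They were *Ttn* (31.7% against 33.6%), *Hbegf* (36.1% against 38.4%), *Ly6g5b* (37.7% against 45.7%), *Gzmc*, *Hebp1* (25.1% against 42.4%) and *Ms4a4c* (37.7% against 60.6%). *Hbegf* encodes an EGF receptor ligand and *Gzmc* a granzyme. The highest shares of these genes were in other types, such as Macrophage for *Hebp1* and Plasma cell for *Ms4a4c*.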

How the data were processed

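The study sorted cells from livers and lungs into 4 libraries, 1 per group, with groups taken from the labels. The authors aligned reads to mm10 with Cell Ranger, excluded cells with few genes, removed doublets and dead cells by flow cytometry, clustered the cells in Seurat and named the types by hand; no computational search for doublets among these cells was described. The deposited tables pooled the libraries. Their shares of cells above 0 for a gene, deposited as fractions with 3 decimals, were the only values used, printed here as percentages. The share in all other cells is also a fraction deposited by the authors. The authors' columns of log2 fold changes and p-values compare each type with all other cells and were not used. The deposited tables hold neither a number of cells nor depth, so no interval was computed.

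Genes with the type ILC1_ILC3 were taken as members, and listings were counted in 34 gene lists, 83 genes being in more than 1 list. Members and lists were chosen with earlier results of these data known. Named genes were all listed members of the ILC1, ILC3, AP-1 and killer lectin-like receptor lists, the 20 widest gaps in share, genes listed alone, the 5 widest gaps each way against ILC1 and ILC3, and examples of every other list by gap; a few others, such as genes below other cells, genes at 100% and defining genes that were not listed, were named after their values were seen. Counts cover all members, but 2 of them are not reported here by name. Cluster sizes were fitted by least squares, which was tested on simulated data. Alternatives required a share above other cells, a gap of at least 0.1, or a share of at least 0.5. Python 3.11.15, numpy 2.4.6, pandas 2.3.3 and matplotlib 3.10.9 were used.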

Additional observations from a re-analysis of the deposited data

How the results depend on the processing

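Of 55 values recomputed under alternatives, 51 stayed within 1.5 times of the reported value or the error given. Keeping only listings with a gap of at least 0.1 in share left 37 genes shared with ILC1 and 36 shared with ILC3, and 27 genes listed for ILC1_ILC3 alone, which rose because listings of other types were removed. It also left 3 glycolysis genes. Ordering by the ratio of shares kept 14 of the 20 widest gaps, and the solved size of ILC1_ILC3 ran from 0.586% to 0.592%. No paired analysis was possible because there was 1 library in a group and libraries were pooled in the tables. For the same reason no replicate could be left out.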
